A study of Mus musculus with 4 samples.

Results

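The 7 genes described here encode proteins measured in urine or blood as markers of kidney injury or function, and a reported receptor of one of them. They were taken by symbol as Havcr1, Lcn2, Slc22a17, Gdf15, Cst3, Timp2 and Igfbp7 from the 27998 genes of the deposited matrices, and all 7 were present in all 4 libraries. They were chosen for their clinical use, with earlier results of these data known, so a high count of changed members is not independent evidence. Single-cell RNA was read in GFP-positive kidney cells of mice that carry BAC-CluGFP, a transgene on a bacterial artificial chromosome that reports clusterin (Clu). One library each came from mice labelled untreated and from mice 2, 7 and 30 days after 35 min of ischemia-reperfusion injury (IRI). All groups carry the transgene. The cell type label of the untreated sample also names IRI, and the treatment label was used. The sources used here do not state the strain, sex, age or number of mice, whether animals were pooled, or whether untreated mice had sham surgery. The sort was meant to leave out cells without reporter signal, and the reporter's own transcript is not analysed here.

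Havcr1 encodes KIM-1, a phosphatidylserine receptor that appears on the apical membrane of injured proximal tubule cells and sheds its ectodomain into urine. Lcn2 encodes NGAL, a secreted lipocalin that binds iron-loaded siderophores, and Slc22a17 encodes a membrane protein reported as its receptor. Gdf15 encodes a stress-induced hormone of the TGF-beta superfamily that acts in the hindbrain through GFRAL and its co-receptor RET. Cst3 encodes cystatin C, an inhibitor of cysteine proteases that is filtered by the glomerulus and used in serum to estimate filtration. Timp2, a metalloprotease inhibitor, and Igfbp7, a secreted protein that binds insulin-like growth factors, are measured together in urine as a test tied to G1 cell cycle arrest.

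The genes lie on the mouse build mm10. Havcr1 (ENSMUSG00000040405) spans chr11:46735080-46779578 on the plus strand, with 8 exons in its principal transcript. The other 6 lie on the minus strand: Lcn2 at chr2:32384633-32388252, Slc22a17 at chr14:54906304-54913132, Gdf15 at chr8:70629393-70632456, Cst3 at chr2:148871722-148875692, Timp2 at chr11:118301069-118355740 and Igfbp7 at chr5:77349240-77408041. Their principal transcripts have 6, 9, 3, 3, 5 and 6 exons in that order. The last exon of Igfbp7 overlaps Polr2b on the opposite strand, and Timp2 overlaps Cep295nl on the same strand outside its last exon. The strand setting of the counting is unstated, so Igfbp7 levels may hold reads of Polr2b.

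Promoters of 300 bases, 250 before and 50 after the start, were read from RefSeq on GRCm38.p6, where each of the 7 members had an entry. Havcr1 had 3 entries and Gdf15 had 2, and 1 of each was used. The Havcr1 window lies inside the gene span given above, at the start of its principal transcript. Other starts were not examined. CpG content separated the members: Gdf15 had 1 CpG, Havcr1 had 2 and Lcn2 had 3, whereas Slc22a17 and Cst3 had 13 each, Timp2 had 25 and Igfbp7 had 33. The median over 27025 genes was 7 CpG, and 14.6, 23.8 and 31.9% of genes had as few CpG as Gdf15, Havcr1 and Lcn2. The 3 promoters of lowest CpG content and, for contrast, that of Igfbp7 are shown, with each CpG in capitals. They lie at chr11:46750918-46751217 (plus strand, Havcr1), chr2:32387690-32387989 (minus strand, Lcn2), chr8:70632407-70632706 (minus strand, Gdf15) and chr5:77407996-77408295 (minus strand, Igfbp7).
Havcr1 promoter: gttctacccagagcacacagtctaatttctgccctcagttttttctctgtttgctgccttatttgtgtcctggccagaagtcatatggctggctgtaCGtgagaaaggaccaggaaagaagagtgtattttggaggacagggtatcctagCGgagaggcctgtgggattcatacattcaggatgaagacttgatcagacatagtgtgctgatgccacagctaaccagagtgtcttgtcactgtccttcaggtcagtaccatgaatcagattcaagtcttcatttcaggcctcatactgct
Lcn2 promoter: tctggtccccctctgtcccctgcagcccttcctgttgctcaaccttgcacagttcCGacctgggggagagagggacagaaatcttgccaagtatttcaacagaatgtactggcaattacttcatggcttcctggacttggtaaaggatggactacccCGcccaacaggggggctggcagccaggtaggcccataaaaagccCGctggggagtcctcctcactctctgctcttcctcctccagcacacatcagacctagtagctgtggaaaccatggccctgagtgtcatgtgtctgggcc
Gdf15 promoter: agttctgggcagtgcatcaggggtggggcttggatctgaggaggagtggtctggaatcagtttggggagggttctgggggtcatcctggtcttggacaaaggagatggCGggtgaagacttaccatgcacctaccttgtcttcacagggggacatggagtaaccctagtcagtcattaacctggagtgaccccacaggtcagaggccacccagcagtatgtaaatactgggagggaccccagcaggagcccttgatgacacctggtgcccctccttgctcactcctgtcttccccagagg
Igfbp7 promoter: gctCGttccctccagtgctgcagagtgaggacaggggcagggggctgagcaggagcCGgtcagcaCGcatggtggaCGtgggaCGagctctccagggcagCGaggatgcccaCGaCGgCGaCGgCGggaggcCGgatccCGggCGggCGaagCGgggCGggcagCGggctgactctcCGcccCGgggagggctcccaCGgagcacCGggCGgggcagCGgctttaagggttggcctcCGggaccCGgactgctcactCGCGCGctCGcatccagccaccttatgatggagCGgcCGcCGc
GC content was 46.7% for Havcr1, 56.3% for Lcn2, 57.0% for Gdf15 and 73.3% for Igfbp7, beside a median of 52.7%. The AP-1 motif TGANTCA, searched on both strands, occurred in the Havcr1 window and in no other member's, and 7.93% of all promoters of this length hold it. In Havcr1 the match lies after the start, in transcribed sequence, and not upstream of it. No member's window held TATAAA, the STAT-like TTCNNNGAA, the C/EBP-ATF-like TGATGNAA or the NF-kappaB-like motif, which 14.2, 8.47, 4.06 and 4.71% of promoters hold on either strand. A match is a description of these letters and was not tied to any binding measured here.

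After filtering, 6545 untreated cells and 8310, 1920 and 6365 cells at days 2, 7 and 30 were kept of 27230 barcodes, with medians of 5153, 8779.5, 23368.5 and 9050 UMIs (unique molecular identifiers, each counting 1 captured transcript). The libraries stand apart in their lowest UMI totals of 2335, 3881, 18362 and 5976, so the day 7 library holds no shallow cells. Mitochondrially encoded genes took a median of 14.5% of UMIs in untreated cells and 2.82, 3.59 and 3.68% later. Any 2 libraries shared 4 to 20 cell barcodes. Cells were grouped into 39 clusters without use of the 7 members, and 36 clusters were given a name with "-like" from marker lists that hold no member. Proximal tubule-like cells numbered 2883, 116, 692 and 825, thick ascending limb-like cells 668, 579, 129 and 622, and connecting tubule or principal cell-like cells 840, 376, 55 and 206. Different clusters hold most of the last class, and of the thick ascending limb-like class, before and after IRI: cluster 9 untreated and 15 later, and clusters 13, 17 and 11 in the untreated, day 2 and day 30 libraries. The same holds for proximal tubule-like cells (clusters 2, 12 and 14 untreated, 4 and 23 later). It also holds for intercalated-like (8, then 27), endothelium-like (19, then 20) and urothelium-like cells (25, then 24). A cluster of 1225 cells led by Fst and Ankrd1 stayed unnamed and is called cluster 5. On the injured proximal tubule list 10 markers (71.4%) led in it, as many as in the cluster given that name, and 6 thin limb markers. None of these was among its top genes, so it got no name and is left out of the proximal tubule-like values. The macrophage, monocyte or dendritic-like and the distal convoluted tubule-like classes failed the marker check, so their levels are given without comparison between libraries.

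Levels are given as CPM, the UMIs of a gene in a class scaled to 1000000 UMIs of that class, with exact 95% intervals for counting error alone. Each group has 1 library, so there is no test, and animals, sorts and captures cannot be told apart from time. A gene counted as measured in a comparison if 1 of the 2 libraries reached 20 CPM and both held 20 UMIs or more together. "Higher", "lower", "rose" and "fell" are used where CPM differed 2-fold or more and the ratio's interval left out 1. These 3′ counts are not compared between genes. Over all measured genes of the proximal tubule-like class the median log2 difference from untreated was 0.36, 0.54 and 0.51 at days 2, 7 and 30. Median-of-ratios scaling shifts its log2 differences by -0.50, -0.67 and -0.68, those of the thick ascending limb-like class by -0.12, -0.48 and -0.45, and those of the connecting tubule or principal cell-like class by -0.11, -0.32 and -0.32. Under that scaling the share of proximal tubule-like calls that were higher was 38.6, 39.3 and 36.7%, beside 81.6, 78.8 and 81.3% without it, so each call the scaling ends is named. For the thick ascending limb-like class these shares were 43.2, 35.0 and 40.5%, beside 53.0, 71.9 and 73.0%, and for the connecting tubule or principal cell-like class 47.5, 36.6 and 42.6%, beside 56.3, 62.3 and 68.3%.

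In proximal tubule-like cells 4 members rose at day 2 and 6 at days 7 and 30, and none fell. Of all measured genes in that class, 19.6, 35.2 and 33.3% were higher at these days and 4.41, 9.43 and 7.64% lower. In thick ascending limb-like cells 2, 4 and 4 members rose, beside 12.3, 23.1 and 25.0% of genes, and none fell, beside 10.9, 9.01 and 9.25%. In connecting tubule or principal cell-like cells 2, 3 and 2 rose, beside 10.6, 13.0 and 14.8% of genes, and Slc22a17 fell at days 2 and 7, beside 8.24, 7.87 and 6.9% of genes lower at the 3 days. A member near 0 in untreated cells is measured only where IRI made it high, so these counts are partly set by the minimum.

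**Figure D1:**
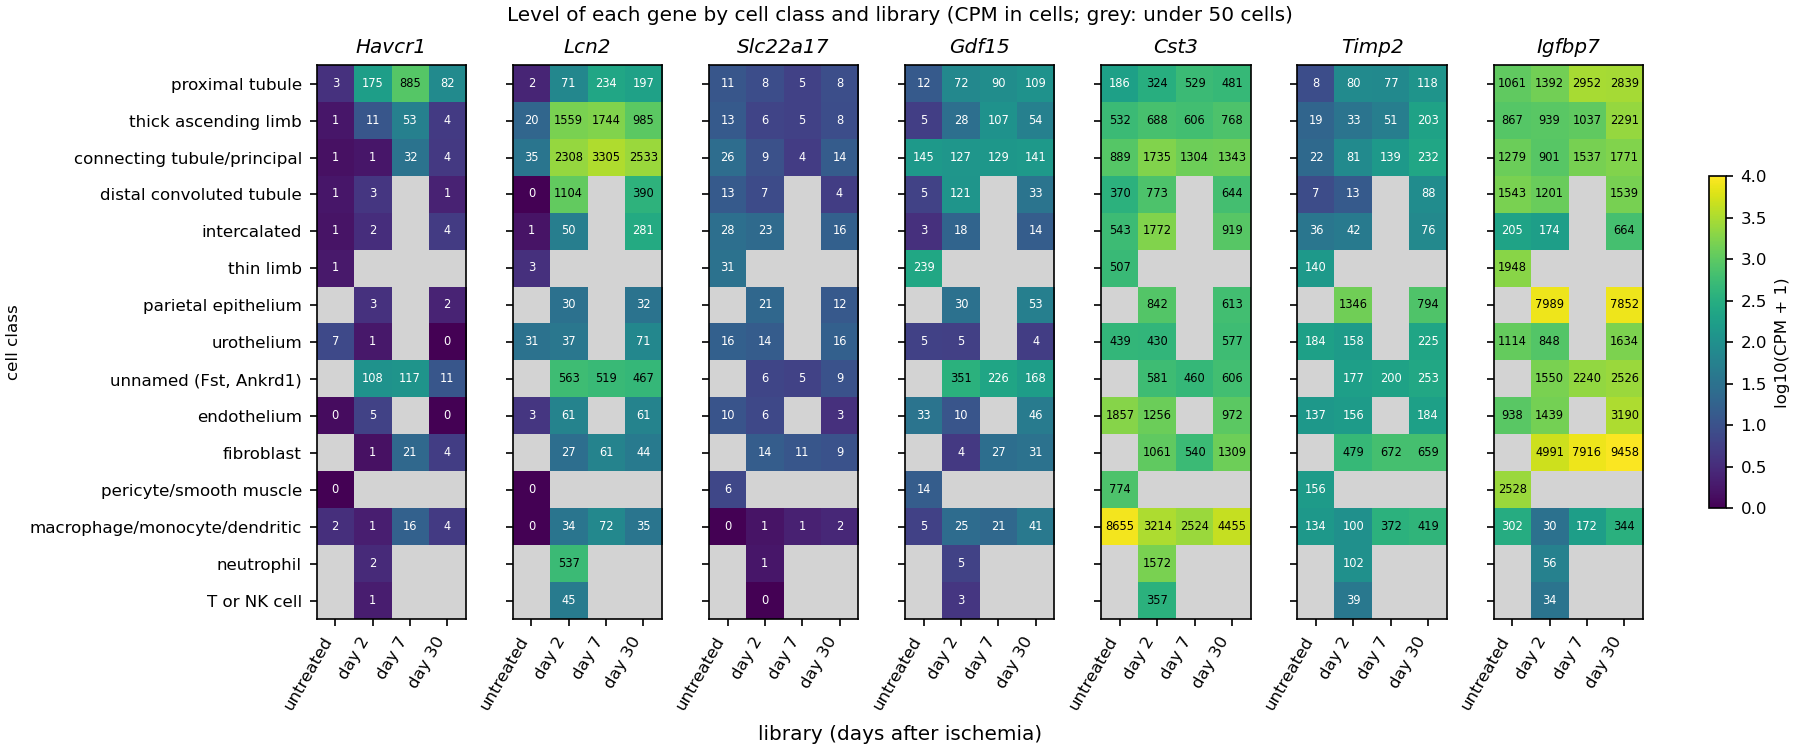
Level of each member (CPM, colour on a log10(CPM + 1) scale, 1 panel per gene) in each cell class (down the page) and library (untreated, days 2, 7 and 30 from left to right), with grey for fewer than 50 cells. Brighter colours are higher, and Havcr1 is brightest in proximal tubule-like cells at day 7 (885 CPM), Lcn2 in connecting tubule or principal cell-like cells at day 7 (3305 CPM) and Igfbp7 in fibroblast-like cells at day 30 (9458 CPM).

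Havcr1, the gene of KIM-1, had its highest level after IRI in proximal tubule-like cells, at day 7. Proximal tubule-like cells had 2.78 CPM untreated (interval 2.15 to 3.53), then 175 (156 to 197), 885 (872 to 899) and 81.7 (76.4 to 87.3) CPM in day order. The ratios to untreated were 63.2 (48.2 to 83.8), 319 (251 to 413) and 29.4 (22.9 to 38.4). Day 7 stood 5.05-fold above day 2, and day 30 at 0.0923-fold (0.0862 to 0.0988) of day 7 and at 0.466-fold (0.408 to 0.534) of day 2. Among IRI libraries, Havcr1, Lcn2 and Igfbp7 were higher at day 7 than at day 2 in this class, beside 9.66% of genes. Of the 7 members Havcr1 was lower at day 30 than at day 7, beside 1.02% of genes. At day 30 against day 2 Havcr1 was lower, beside 5.4% of genes, and Lcn2 and Igfbp7 were higher, beside 8.58%. Median scaling ends both Igfbp7 calls (1.95 and 1.89). With every cell thinned to 2000 UMIs, 0.312, 6.90, 66.8 and 10.7% of proximal tubule-like cells had a Havcr1 UMI in time order, and 1.84, 12.1, 93.2 and 27.6% without thinning. Macrophage, monocyte or dendritic-like cells, which should lack the gene, had it in 0, 0.320, 3.35 and 0.880% of thinned cells, at median depths of 4092.5, 11612.5, 22368 and 8626 UMIs beside 3980, 11958, 25158 and 11317 in the proximal tubule-like class.

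The day 2 level rested on few cells. Of 116 proximal tubule-like cells 14 had a Havcr1 UMI, and 1 of them held 130 of the class's 288 Havcr1 UMIs. At day 7, 645 of 692 cells had one, and the 10% of cells with the most held 28.8% of the UMIs. At day 30, 228 of 825 cells had one and those 10% held 76.4%.

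Most of these UMIs lay after IRI in 1 cluster, named injured proximal tubule-like from markers that do not include Havcr1, which is nonetheless its leading gene. It held 24 of the untreated proximal tubule-like cells, 37 at day 2, 647 at day 7 and 622 at day 30. Havcr1 stood there at 421, 940 and 91.5 CPM at days 2, 7 and 30, beside 6.17, 49.6 and 48.0 CPM in the other proximal tubule-like clusters, and had 0 UMIs in the 24 untreated cells. Without this cluster the day 2 ratio is 2.20, which is under the minimum level and no call, and the day 30 ratio remains a call. Day 7 gives no ratio without it, since 45 cells are left. The day 30 ratio to day 2 is then 7.78, in place of 0.466. These values describe the clustered cells and are no test.

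Other classes had lower Havcr1 levels after IRI. Cluster 5 had 108, 117 and 10.8 CPM at days 2, 7 and 30, with 22 of its 142 day 2 cells holding 27.2% of that library's Havcr1 UMIs. Its day 30 level was lower than that of day 7 (ratio 0.0922, 0.0727 to 0.116), beside 1.73% of genes in that cluster. Unnamed cluster 30, with 124 of its 140 cells at day 7, had Havcr1 among its leading genes, beside C1qa, Ccl8 and Apoe. The T or NK-like cells and unnamed clusters other than cluster 5 together held 5.27% of the day 7 Havcr1 UMIs. Whether cluster 30 holds doublets was not tested. Thick ascending limb-like cells had 0.730 CPM untreated and 10.6, 53.4 and 3.74 later. Day 7 was higher (73.1-fold, 28 to 271) and the other days were not measured. It stood 5.02-fold above day 2, and day 30 at 0.07-fold of day 7, where 0.844% of genes were lower. Connecting tubule or principal cell-like cells reached 32.2 CPM at day 7 (60.1-fold, 21.9 to 230), which was higher than day 2 beside 3.03% of genes and above day 30 beside 0.822% of genes lower at day 30. The level was 21.3 in fibroblast-like and 16.4 in macrophage, monocyte or dendritic-like cells of that day 7 library. After subtraction of free RNA, estimated from haematopoietic genes in each class, the day 7 levels became 808 CPM in proximal tubule-like, 22.4 in thick ascending limb-like and 0 in connecting tubule or principal cell-like cells. The connecting tubule or principal cell-like call does not outlive that subtraction. Of all Havcr1 UMIs, proximal tubule-like cells held 55.0% of 120 untreated, 41.9% of 687 at day 2, 86.3% of 19221 at day 7 and 78.7% of 1124 at day 30. Among the untreated UMIs, 16.7% came from 2 cells of cluster 5 and 14.2% from urothelium-like cells.

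**Figure D2:**
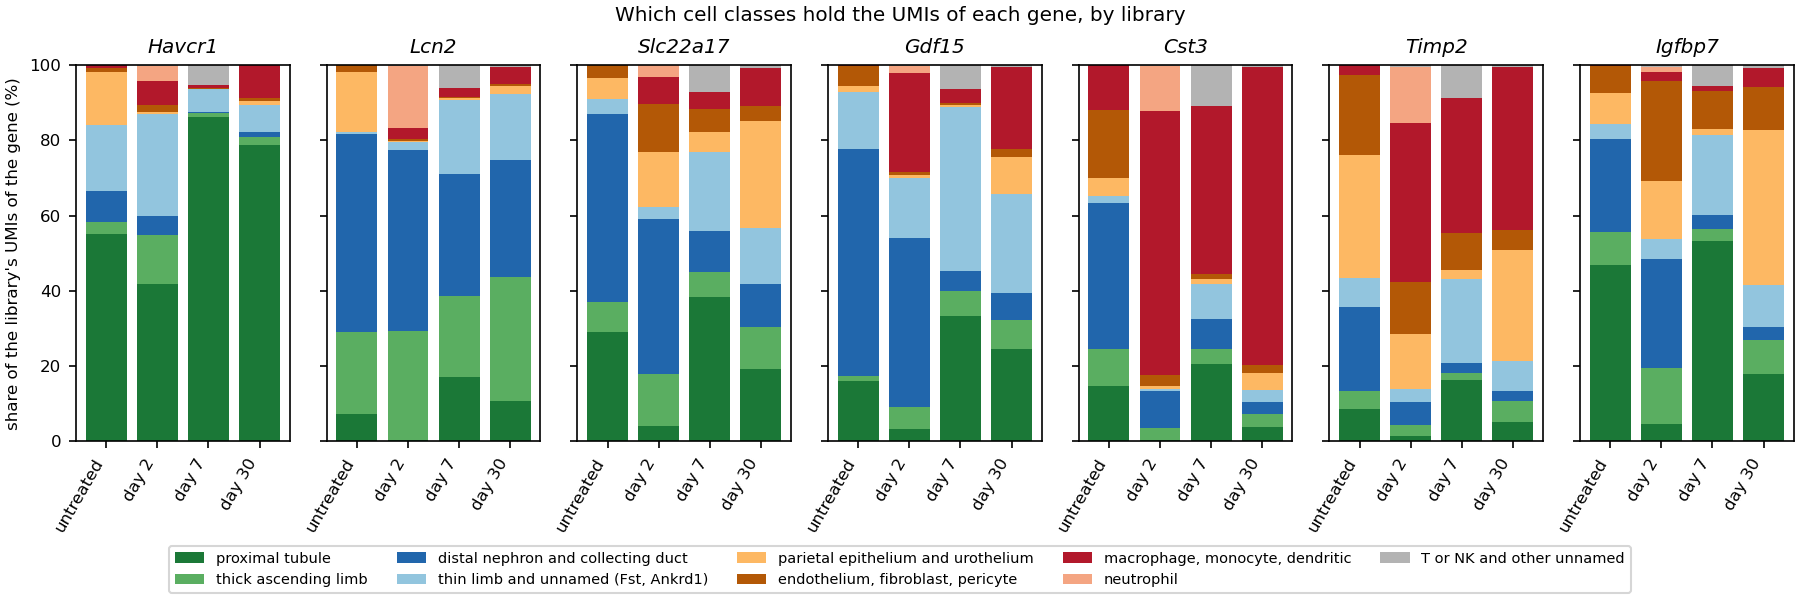
Share of each member's UMIs in a library (percent, stacked to 100) held by groups of cell classes, for the untreated, day 2, day 7 and day 30 libraries of each gene. Proximal tubule-like cells hold 86.3% of Havcr1 at day 7, whereas Lcn2 is split among the thick ascending limb-like, distal and other groups and Cst3 lies at 70.4, 44.6 and 79.2% in macrophage, monocyte or dendritic-like cells at days 2, 7 and 30.

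Lcn2, the gene of NGAL, was highest in distal tubule segments and had already risen at day 2. Connecting tubule or principal cell-like cells had 35.0 CPM untreated and 2308, 3305 and 2533 at days 2, 7 and 30. These are ratios of 66.0 (58.4 to 74.9), 94.5 (83.4 to 107) and 72.5 (64.0 to 82.3). In thick ascending limb-like cells, which line the loop of Henle, Lcn2 had 20.1 CPM untreated and 1559, 1744 and 985 later, with ratios of 77.7 (64.4 to 94.6), 86.8 (71.9 to 106) and 49.1 (40.6 to 59.8). In both classes the levels of the 3 IRI libraries lay within 2-fold of each other. A Lcn2 UMI was found in 2.4, 76.3, 72.1 and 58.7% of thinned thick ascending limb-like cells and in 4.17, 57.4, 81.8 and 66.5% of thinned connecting tubule or principal cell-like cells. In macrophage, monocyte or dendritic-like cells the shares were 0, 6.17, 8.10 and 4.92%. Distal convoluted tubule-like cells had 0 UMIs untreated and 1104 and 390 CPM at days 2 and 30.

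Proximal tubule-like cells carried less Lcn2, and the class as a whole was higher at day 7 than at day 2. Their levels were 1.56 CPM untreated (interval 1.1 to 2.14), then 71.2 (58.9 to 85.3), 234 (228 to 241) and 197 (189 to 206) in day order. The ratios were 45.8 (31.4 to 68.2), 151 (109 to 214) and 127 (91.6 to 180), and day 7 was 3.29-fold (2.74 to 3.99) above day 2. At day 2, 33 of 116 cells had a UMI. The injured cluster had 137, 247 and 249 CPM, beside 25.7, 48.7 and 18.9 in the other proximal tubule-like clusters. It made up 37 of 116 cells of the class at day 2 and 647 of 692 at day 7. Without it the day 30 ratio to untreated was 12.3 with the level under the minimum, and the day 30 ratio to day 2 was 0.734, in place of 2.77. Macrophage, monocyte or dendritic-like cells had 34.4, 72.1 and 34.8 CPM, all of which the free RNA subtraction took to 0, while proximal tubule-like cells kept 29.7, 131 and 151 CPM.

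Lcn2 rose in intercalated-like cells to 50.3 CPM at day 2 and 281 at day 30, against 0.600 untreated (83.5-fold, 34 to 266, and 466-fold, 198 to 1440). Free RNA subtraction leaves 7.85 CPM at day 2, under the minimum, which ends that call, and 245 CPM at day 30. In this class 2 and 3 members were higher at days 2 and 30, beside 10.5 and 10.8% of genes. Lcn2 and Igfbp7 were higher there at day 30 than at day 2 (5.59-fold and 3.81-fold), beside 4.85% of genes. For endothelium-like cells Lcn2 stood at 61.1 and 60.9 CPM on days 2 and 30, against 3.31 untreated (18.5-fold, 9.44 to 41.3, and 18.4-fold, 9.17 to 41.9). In that class 1 and 2 members were higher, beside 8.72 and 8.98% of genes. The free RNA subtraction took the endothelial day 2 level to 0 and the day 30 level to 22 CPM. Urothelium-like cells had 37.0 and 71.3 CPM against 30.7 untreated, where day 30 was higher (2.32-fold, 1.73 to 3.13), beside 4.92% of genes, and day 2 was within 2-fold. Neutrophil-like cells, which store NGAL in granules, were found at day 2, where 2386 cells had 537 CPM and held 16.5% of that library's Lcn2 UMIs. Over each whole library Lcn2 stood at 9.35, 502, 526 and 293 CPM. The thick ascending limb-like class held 21.8, 29.1, 21.7 and 33.0% of its UMIs and the connecting tubule or principal cell-like class 51.7, 27.2, 18.3 and 27.9%. Such shares rest on which cells the sort and the UMI minimum of each library let through.

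Slc22a17, the reported NGAL receptor, was lower in the class where Lcn2 was highest. In connecting tubule or principal cell-like cells it had 8.81, 4.2 and 13.6 CPM at days 2, 7 and 30, against 25.6 CPM untreated. Days 2 and 7 were lower, at 0.344-fold (0.244 to 0.477) and 0.164-fold (0.0595 to 0.364). Day 30 was 0.532-fold (0.350 to 0.785) and no call, although it is lower (0.426) under median scaling. Its level in intercalated-like cells was 22.9 and 15.7 CPM on days 2 and 30, against 28.3 CPM untreated, within 2-fold, and the day 30 ratio of 0.556 becomes lower (0.477) under median scaling. In proximal tubule-like cells (10.8, 7.91, 4.96 and 8.22 CPM) and thick ascending limb-like cells (12.8, 5.56, 4.99 and 7.77 CPM) it stayed under 20 CPM and was not measured. Untreated thin limb-like cells had 31.1 CPM. Levels in macrophage, monocyte or dendritic-like cells were 0, 0.605, 1.29 and 1.81 CPM. At these levels 242 to 887 UMIs per library carry the gene, so small differences were not detectable.

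Gdf15 was present in untreated connecting tubule or principal cell-like cells and rose in proximal tubule-like and thick ascending limb-like cells. Connecting tubule or principal cell-like cells had 145 CPM untreated and 127, 129 and 141 at days 2, 7 and 30, with ratios of 0.872 (0.790 to 0.961), 0.885 (0.753 to 1.04) and 0.967 (0.85 to 1.1), and held 58.9% of the untreated UMIs. It was concentrated there: 191 of 840 untreated cells had a UMI, and the 10% of cells with the most held 83.4% of them. Untreated thin limb-like cells had 239 CPM. Under the chosen settings distal convoluted tubule-like cells held the most Gdf15 UMIs of any named class at day 2. With the connecting tubule or principal cell-like and intercalated-like cells they held 44.8% of them. Of thinned distal convoluted tubule-like cells without a Havcr1 UMI, 1.54% had a Gdf15 UMI untreated, and 13.7 and 4.62% at days 2 and 30. In proximal tubule-like cells Gdf15 stood at 12.4 CPM untreated and 72.4, 90.3 and 109 later, with ratios of 5.82 (4.66 to 7.22), 7.26 (6.41 to 8.24) and 8.74 (7.69 to 9.96). All 3 IRI libraries were above the untreated one. In thick ascending limb-like cells it stood at 4.56 CPM untreated and 27.7, 107 and 54.4 later, with ratios of 6.06 (4 to 9.56), 23.5 (15.6 to 36.8) and 11.9 (7.95 to 18.7). Its day 7 level there was 3.87-fold that of day 2 (3.26 to 4.6), and with Havcr1 that makes 2 members higher, beside 5.69% of genes. These calls held under median scaling, and those of proximal tubule-like cells at days 2 and 30 held without the injured cluster (day 7 leaves too few cells). Free RNA subtraction takes untreated proximal tubule-like Gdf15 to 2.57 CPM and its ratios to 26.8, 27.2 and 38.0. In this class it removes 28.9% of the whole-library level untreated and 8.26, 19.6 and 15.9% of it at days 2, 7 and 30. The whole-library level includes these cells themselves, so the larger ratios depend on that estimate and are no stronger evidence of a rise. The injured cluster had 104, 92.2 and 120 CPM after IRI and the other proximal tubule-like clusters 50.4, 61.7 and 70.6, a smaller gap than for Havcr1.

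The unnamed cluster 5 carried 351, 226 and 168 CPM of Gdf15 at days 2, 7 and 30 and held 16.0, 43.7 and 26.4% of the UMIs. Its day 30 level was lower than that of day 2 (0.477-fold, 0.433 to 0.526), as was its Havcr1, beside 4.02% of genes. Gdf15 in endothelium-like cells stood at 10.2 and 45.7 CPM on days 2 and 30, against 33.5 CPM untreated. Day 2 was lower (0.305-fold, 0.182 to 0.489), beside 10.2% of genes, but 0.590 against 18.9 CPM remained after free RNA subtraction and the call was lost under the minimum. Day 30 was higher than day 2 (4.48-fold, 2.68 to 7.73), as was Igfbp7 (2.22-fold), beside 7.24% of genes. In fibroblast-like cells Gdf15 stood at 3.66, 26.6 and 31.5 CPM on days 2, 7 and 30. Days 7 and 30 were higher than day 2 (7.27-fold and 8.61-fold), and with Havcr1 and Lcn2 that makes 3 members higher at day 7, beside 6.64% of genes, and 1 at day 30, beside 9.47%. Fibroblast-like Havcr1 was lower at day 30 than at day 7, beside 3.31% of genes. The Havcr1 call at day 7 is lost under median scaling. Free RNA subtraction ends all these fibroblast-like calls: Havcr1 and Lcn2 go to 0, and Gdf15 to 12.7 and 12.5 CPM at days 7 and 30, under the minimum. Gdf15 in macrophage, monocyte or dendritic-like cells had 4.87 CPM untreated and 25, 21.4 and 41.1 later, and these held 26.2% of the day 2 UMIs. The receptor gene Gfral had 0 UMIs in every class and library, and Ret had at most 3.04 CPM.

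Against untreated cells, Cst3 was higher in proximal tubule-like cells at days 7 and 30 and in intercalated-like cells at day 2, and within 2-fold in the thick ascending limb-like and connecting tubule or principal cell-like classes. Macrophage, monocyte or dendritic-like cells had 8655 CPM untreated and 3214, 2524 and 4455 at days 2, 7 and 30, and held 11.9, 70.4, 44.6 and 79.2% of the UMIs. Those cells numbered 84 untreated and 3128, 358 and 2501 later. Over all kept cells Cst3 stood at 555, 2050, 982 and 2090 CPM, values that move with the make-up of the libraries. Thick ascending limb-like cells had 532 CPM untreated and 688, 606 and 768 later, and connecting tubule or principal cell-like cells 889 untreated and 1735, 1304 and 1343 later (1.95, 1.47 and 1.51-fold), all within 2-fold. Proximal tubule-like cells had 186 CPM untreated and 324, 529 and 481 later. Days 7 and 30 were higher, at 2.84-fold (2.74 to 2.94) and 2.59-fold (2.48 to 2.69), but at 1.79 and 1.61-fold neither call holds under median scaling. Free RNA subtraction leaves 25.7 CPM untreated and 154, 336 and 149 later in that class, and all 3 days are then higher. These calls depend on the fractions given for Gdf15, of which the untreated one was the largest. Haematopoietic marker genes, 17 in all and none at 0 in that class, summed to 97.0 CPM in untreated proximal tubule-like cells and to 2678, 1818 and 2564 CPM later. Their part in the Cst3 difference was not tested beyond that subtraction. The same list spanned 13.4 to 497 CPM over the other non-haematopoietic classes in the untreated library. After IRI it spanned 1320 to 7258 (day 2), 733 to 1242 (day 7, without unnamed cluster 30) and 1379 to 4367 CPM (day 30). Cluster 30 stood at 17221 CPM at day 7, with C1qa, which is on that list, among its leading genes.

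Intercalated-like cells had a Cst3 call at day 2, with 1772 CPM against 543 untreated (3.27-fold, 3.1 to 3.43), and 919 at day 30 (1.69-fold). Cst3 in endothelium-like cells stood at 1256 and 972 CPM on days 2 and 30, against 1857 CPM untreated. Both ratios, 0.676 and 0.524, were within 2-fold, and the day 30 ratio becomes lower (0.459) under median scaling. Neutrophil-like cells at day 2 had 1572 CPM and held 11.9% of the UMIs. Fibroblast-like cells had 1061, 540 and 1309 CPM on days 2, 7 and 30, where day 30 was higher than day 7 (2.42-fold), beside 7.53% of genes.

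Timp2 was higher at day 30 than untreated in the proximal tubule-like, thick ascending limb-like and connecting tubule or principal cell-like classes. Connecting tubule or principal cell-like cells had 22.4 CPM untreated and 81.0, 139 and 232 at days 2, 7 and 30, with ratios of 3.62 (3.02 to 4.36), 6.19 (5.02 to 7.66) and 10.4 (8.71 to 12.4). Day 30 was 2.87-fold day 2 in that class, beside 5.35% of genes. Thick ascending limb-like cells had 19.0 CPM untreated and 33.1, 50.6 and 203 later, and day 30 was higher than untreated (10.7-fold, 8.75 to 13.2), than day 2 (6.13-fold) and than day 7 (4.02-fold). With Igfbp7 that makes 2 members higher against each earlier day, beside 9.32 and 2.69% of genes. The Igfbp7 call against day 2 is lost under median scaling (1.96). Day 2 (1.74-fold) was no call, and day 7 (2.66-fold) is lost under median scaling (1.91) and under a mitochondrial limit of 20% (1.44). Proximal tubule-like cells had 7.74 CPM untreated and 79.7, 76.8 and 118 later, with ratios of 10.3 (8.17 to 13), 9.93 (8.51 to 11.6) and 15.2 (13.1 to 17.9). At day 2 the injured cluster carried 185 CPM and the other clusters 7.20, and without it the ratio of 2.42 is no call. The 24 untreated cells of that cluster had 417 CPM. The 3 IRI levels of this class lay within 2-fold of each other, and free RNA subtraction leaves 70.9, 41.4 and 60.8 CPM and 0 untreated. Timp2 in intercalated-like cells stood at 41.9 and 76.3 CPM on days 2 and 30, against 36.1 CPM untreated. Their day 30 call (2.11-fold) is lost under median scaling (1.81), under free RNA subtraction and with the mean over cells of per-cell CPM.

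Timp2 was also present in parietal epithelium-like, fibroblast-like and haematopoietic-like cells. Timp2 stood at 1346 and 794 CPM in parietal epithelium-like cells on days 2 and 30, and at 479, 672 and 659 CPM in fibroblast-like cells on days 2, 7 and 30. In macrophage, monocyte or dendritic-like cells it stood at 134 CPM untreated and 100, 372 and 419 later. Those cells held 2.57% of the UMIs untreated and 42.3, 35.8 and 43.3% later, and untreated urothelium-like cells (184 CPM) held 22.3%. Over all kept cells Timp2 stood at 39.7, 106, 180 and 359 CPM.

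Igfbp7 was present in untreated tubules. It was called higher than untreated at days 7 and 30 in proximal tubule-like cells and at day 30 in thick ascending limb-like cells. Proximal tubule-like cells had 1061 CPM untreated and 1392, 2952 and 2839 at days 2, 7 and 30. Day 2 (1.31-fold) was no call, and days 7 and 30 were higher at 2.78-fold (2.74 to 2.82) and 2.68-fold (2.63 to 2.72), calls that median scaling ends (1.75 and 1.67). Without the injured cluster the day 30 ratio was 1.24 and no call. That cluster had 2553 CPM untreated (24 cells) and 1930, 3030 and 3288 at days 2, 7 and 30. The other proximal tubule-like clusters had 1044 CPM untreated and 1022, 1764 and 1296 later. Thick ascending limb-like cells had 867 CPM untreated and 939, 1037 and 2291 later. Day 30 was 2.64-fold (2.56 to 2.73) untreated, or 1.94-fold and no call under median scaling, and 2.21-fold (2.13 to 2.29) day 7. Connecting tubule or principal cell-like cells had 1279 CPM untreated and 901, 1537 and 1771 later, within 2-fold throughout. Igfbp7 in intercalated-like cells stood at 174 and 664 CPM on days 2 and 30, against 205 CPM untreated, and day 30 was higher (3.24-fold, 2.98 to 3.52). Endothelium-like cells had 1439 and 3190 CPM against 938 untreated, and day 30 was higher (3.4-fold, 3.23 to 3.58).

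Fibroblast-like cells had 4991, 7916 and 9458 CPM of Igfbp7 at days 2, 7 and 30, and parietal epithelium-like cells 7989 and 7852 CPM at days 2 and 30. Parietal epithelium-like cells numbered 849 at day 30 and held 39.7% of that library's Igfbp7 UMIs. Igfbp7 in macrophage, monocyte or dendritic-like cells stood at 302 CPM untreated and 30.3, 172 and 344 later, and free RNA subtraction takes all 4 to 0. The share of thinned proximal tubule-like cells with an Igfbp7 UMI was 77.2, 77.6, 97.7 and 97.1%. Of the pair of urine markers, Timp2 was 10.3-fold higher in proximal tubule-like cells at day 2, where Igfbp7 was within 2-fold (1.31). That difference was not tested. Timp2 stood at 417 CPM in the injured cluster untreated (24 cells) and 185 at day 2, and at 2.98 and 7.20 in the other clusters. Without the injured cluster the Timp2 ratio of 2.42 is no call.

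**Figure D3:**
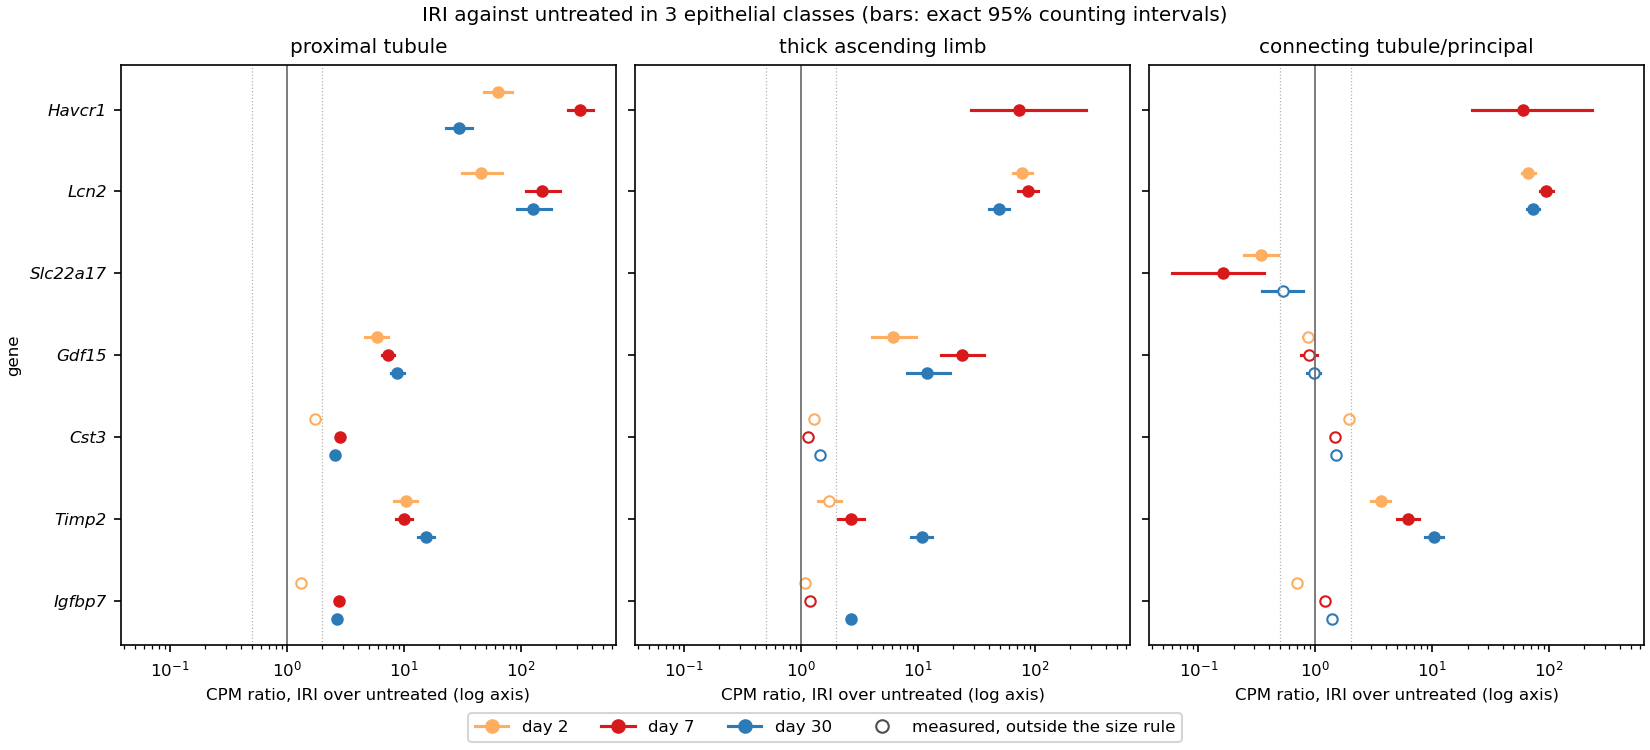
Ratio of CPM, IRI over untreated, for each member at days 2, 7 and 30 (log axis, lines are exact 95% counting intervals, dotted lines mark 0.5 and 2) in proximal tubule-like, thick ascending limb-like and connecting tubule or principal cell-like cells. Filled points meet the size rule, open points were measured but do not, and unmeasured ones are left out. Lcn2 lies between 45.8 and 151 in all 3 classes, while Gdf15 lies near 1 in connecting tubule or principal cell-like cells (0.872 to 0.967).

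**Figure D4:**
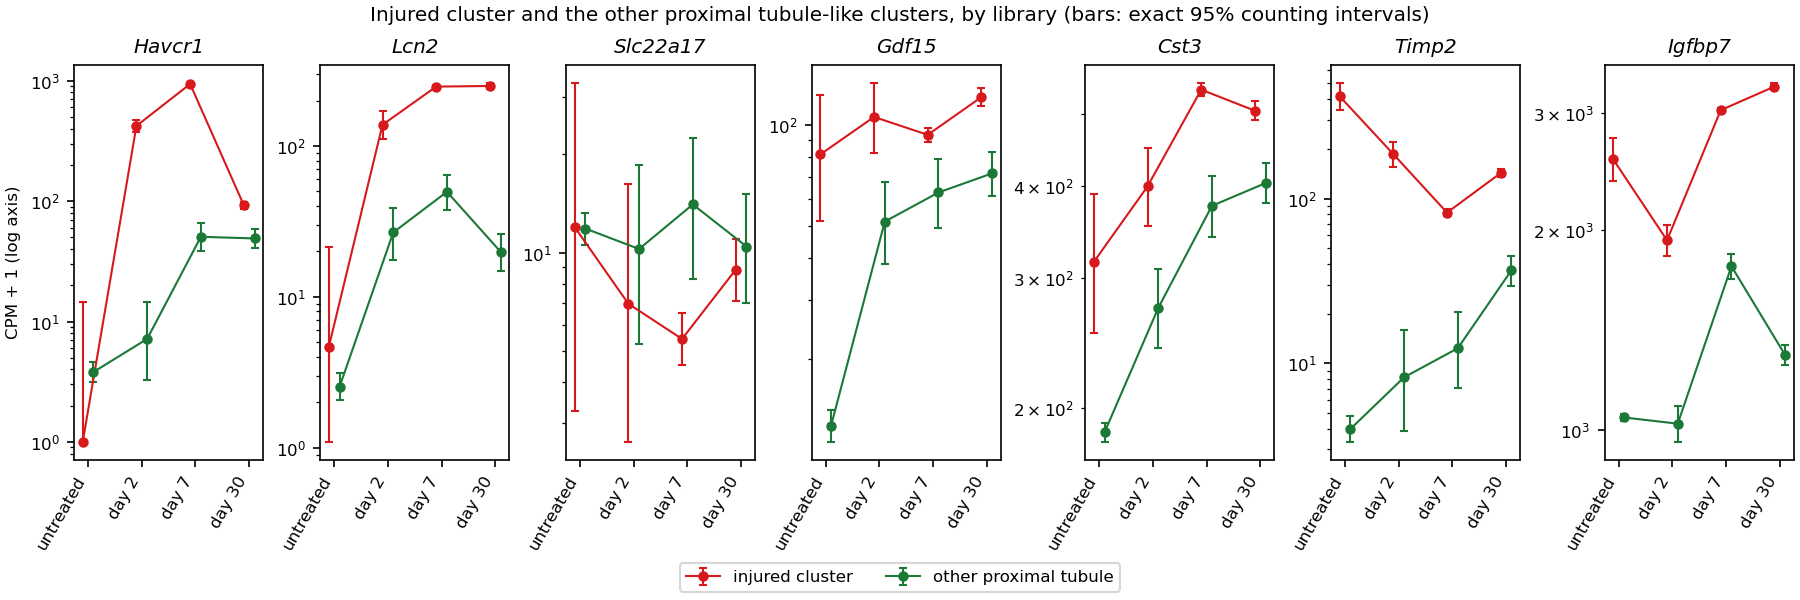
Level of each member (CPM + 1, log axis, lines are exact 95% counting intervals) in the injured proximal tubule-like cluster and in the other proximal tubule-like clusters, by library. At day 7 Havcr1 stands at 940 CPM in the injured cluster and 49.6 in the others, and Gdf15 at 92.2 and 61.7.

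Within the injured cluster the share of cells with Lcn2 was close in cells with and without Havcr1. At day 7, of 458 thinned cells with a Havcr1 UMI 26.2% had a Lcn2 UMI, beside 27.5% of those without one. For Gdf15 the shares were 14.6 and 12.2%. At day 30, 18.4% of 76 cells with a Havcr1 UMI had Lcn2, beside 23.3% of those without. At 2000 UMIs per cell a missing UMI does not show a missing transcript, and cells of 1 library share their source, so these shares are a description. The median number of members with a UMI per thinned cell was 3 and 2 in the injured cluster at days 7 and 30. In the other proximal tubule-like clusters that median was 1 untreated and 2 at day 30. The median was 3 after IRI in thick ascending limb-like cells, beside 1 untreated, and 3 in connecting tubule or principal cell-like cells, beside 2 untreated.

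The list counts below for proximal tubule-like cells stand beside 19.6, 35.2 and 33.3% of all measured genes higher at days 2, 7 and 30. Lower were 4.41, 9.43 and 7.64%. Under median scaling 410, 756 and 673 of all genes were higher, in place of 1214, 2348 and 2238. Shares for the other classes are given with the member counts above. Other urine or serum biomarker genes moved in both directions in proximal tubule-like cells. Of 35, 22, 21 and 21 were measured at days 2, 7 and 30, and 11, 10 and 9 were higher and 5, 7 and 8 lower, or 9, 10 and 8 higher and 6, 8 and 10 lower under median scaling. Vim, an intermediate filament of dedifferentiated tubule cells, had 187, 408 and 354 CPM against 5.17 untreated. Ccl2, the chemokine MCP-1, had 514 and 310 CPM at days 7 and 30 against 0.168 untreated. Ccl2 was itself one of the injured proximal tubule markers, so its rise is not independent of how these cells were classed. Ggt1, a brush border enzyme read in urine, was lower, with 158, 125 and 217 CPM against 799 untreated. The growth factor gene Egf (3.65, 1.71 and 9.97 against 67.3 CPM) and Calb1 (3.65, 2.99 and 2.86 against 62.2 CPM) were lower too, and both are genes of distal segments. In thick ascending limb-like cells 6, 8 and 9 of 19, 20 and 22 were higher and 8, 7 and 7 lower, and in connecting tubule or principal cell-like cells 5, 8 and 6 of 18, 21 and 19 were higher and 8, 7 and 8 lower.

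Genes of phosphatidylserine uptake, the known function of KIM-1, were called higher in 1, 5 and 5 of 9, 10 and 10 measured in proximal tubule-like cells and lower in 1, 2 and 2. Under median scaling 1 remained higher on each day. That list's Mfge8, a bridging protein for dying cells, had 47.5, 94.7 and 63.6 CPM against 2.35 untreated. The scavenger receptor Cd36 was lower, with 43.8, 21.3 and 69.2 CPM against 192 untreated. Iron and siderophore genes, the setting of NGAL, were higher in 4, 3 and 2 of 13, 13 and 11 and lower in 0, 4 and 3. Cp, the ferroxidase ceruloplasmin, had 98.6, 457 and 444 CPM against 6.39 untreated, but it is a marker that helped name the injured cluster. The endocytic receptor Lrp2, megalin, which takes up filtered NGAL and cystatin C, had 1297 CPM at day 2, within 2-fold, and 202 and 384 at days 7 and 30 against 1136 untreated, both lower. Lrp2 is itself a proximal tubule marker used in naming, so its fall is not independent of how these cells were classed.

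Stress response genes listed with Gdf15 were higher in 5, 6 and 7 of 9, 10 and 10, or 3, 4 and 4 under median scaling, and none was lower. Atf3, a stress transcription factor, had 45.0, 206 and 206 CPM against 8.28 untreated. Atf3 and Egr1 are also on the list of genes that tissue digestion induces, which was higher in 13 of 13, 14 of 14 and 14 of 14 measured genes, or 12, 13 and 13 under median scaling. Handling was not tested apart from injury. In connecting tubule or principal cell-like cells, where Gdf15 was within 2-fold, 0, 2 and 2 of 12 stress genes were higher on each day, and 3, 1 and 4 of 15 digestion genes, or 2, 0 and 2 under median scaling. In thick ascending limb-like cells, where Gdf15 rose, 5, 8 and 6 of 11, 13 and 11 stress genes were higher, or 4, 6 and 5 under median scaling. There 13, 12 and 13 of 14 digestion genes were higher, or 13, 7 and 12 under median scaling.

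Cystatins and cathepsins, the family and targets of cystatin C, were higher in 7, 7 and 5 of 10 measured genes in proximal tubule-like cells, or 3, 4 and 3 under median scaling. Cstb, the intracellular cystatin B, had 545, 981 and 844 CPM against 87.3 untreated. Ctss, a cathepsin of antigen-presenting cells, had 36.5, 42.2 and 110 CPM against 0.336 untreated, beside the rise of haematopoietic markers given above. Ctsb had 528, 453 and 329 CPM against 219 untreated and was higher at days 2 and 7, but not under median scaling at day 2. Among metalloproteases and their inhibitors 2, 3 and 4 of 3, 4 and 5 were higher and 0, 1 and 1 lower. Adamts1 had 182, 511 and 431 CPM against 24.1 untreated, and Timp1 60.4 CPM at day 7 against 0.0420 untreated. Timp3, by contrast with Timp2, was lower at days 7 and 30, with 545 and 724 CPM against 1490 untreated. Mmp2, which TIMP2 binds, had at most 8.12 CPM in this class and was not measured. Mmp14 had 25.1 and 29.6 CPM at days 7 and 30 against 0.420 untreated, higher but under the minimum when median-scaled.

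Of 7, 6 and 6 measured genes of the IGF axis 1, 0 and 0 were higher and 0, 1 and 1 lower in proximal tubule-like cells. Igfbp5 was the lower one, with 11.8 and 18.0 CPM at days 7 and 30 against 86.5 untreated, and Igf1r, the receptor, had 243, 209 and 274 CPM against 167, within 2-fold. In connecting tubule or principal cell-like cells 5, 5 and 4 of 8 were lower and 0 higher, with median log2 differences of -1.16, -1.14 and -0.78, beside 0.09, 0.23 and 0.25 over all measured genes. The thick ascending limb-like class had 3, 2 and 4 of 7, 7 and 8 lower and 0, 0 and 1 higher, or 3, 3 and 4 lower and 0 higher under median scaling. Genes of G1 arrest and p53 were higher in 7, 10 and 11 of 13, 14 and 16 in proximal tubule-like cells, or 3, 6 and 5 under median scaling, and none was lower. Cdkn1a, the cell cycle inhibitor p21, had 42.6, 95 and 90.6 CPM against 7.65 untreated in proximal tubule-like cells. In thick ascending limb-like cells it had 92.5, 192 and 279 CPM against 10.2 untreated, and in connecting tubule or principal cell-like cells 109, 159 and 158 against 14.9, all higher.

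Genes with the most similar pattern were ranked by Pearson's r of log2(CPM + 10) over 41 sums of class and library, among 11532 genes. The sums share libraries, depth and free RNA, so r is a description. Among the genes closest to Havcr1 were D630011A20Rik (r = 0.88) and Gc (0.85). Lcn2 was closest to Samd5 (0.82), Cdh3 (0.81) and Clu (0.80), the gene of the reporter by which cells were sorted. Slc22a17 was closest to Bsg (0.82), Gdf15 to Car5b, Veph1 and Myo9a (0.78 each), Timp2 to Lims1 (0.83) and Igfbp7 to Smo and Cdc42bpa (0.89 each). Fgd2 and Unc93b1 (0.79 each) were among those closest to Cst3.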

How the data were processed

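Single-cell 3′ RNA libraries (10x chemistry v3.1, per the labels' protocols) were analysed from 4 sorted samples, 1 per group. The deposited matrices hold raw UMI counts per gene and barcode. The submitters' processing notes name Cell Ranger 7.0.1 and mm10, whereas the matrix headers carry 3.0.1 as the software version. No source used here states the annotation release or barcode filter. Lowest UMI totals of 2335, 3881, 18362 and 5976 (untreated, days 2, 7 and 30) limit which cells each library holds.

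Barcodes were kept with at least 500 UMIs, 300 genes and at most 50% mitochondrial UMIs, which removed 2740 untreated barcodes and 35, 0 and 45 later. Scrublet (scanpy 1.11.5) removed 678, 10 and 581 doublets after IRI. It called 1 of 9286 untreated barcodes and so did not work there. Clusters (Leiden resolution 1, 2000 variable genes without the members, 30 components; leidenalg 0.10.2, igraph 0.11.9) were named from marker lists; the naming thresholds, and the joining of the connecting tubule list with the principal cell list, were set after the clusters were seen. UMIs were summed per class and library. Ratio intervals are exact (scipy 1.17.1), and the size rule was tested on simulated data. The members and lists were chosen with earlier results of these data known. Named genes are all members, the 3 called genes of largest fold per list and direction in proximal tubule-like cells, partners of members, and the 3 genes of highest likeness per member; a part of these is printed, and some genes of high likeness are not reported here. Of 13 alternatives 12 were planned and 1, for untreated doublets, was added after seeing the data. Annotation came from GENCODE M21.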

Additional observations from a re-analysis of the deposited data

Results flagged for a closer look

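Gdf15 moved in opposite directions at day 2 in 2 classes: its ratio to untreated was 6.06 in thick ascending limb-like cells and 0.305 in endothelium-like cells. Each class has 1 library per group, and the difference between the ratios was not tested. The endothelial call is lost on free RNA subtraction, which leaves 0.590 CPM at day 2 against 18.9 CPM untreated (ratio 0.0313, under the minimum level).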

How the results depend on the processing

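Of 45 ratios to untreated that were called, 31 kept their call in each alternative that could be run, and 14 lost it in at least 1. Those losses stand beside the results above, and their causes were not tested. No proximal tubule-like call could be run at Leiden resolution 0.5, which left too few cells in that class. Among the named classes there, Havcr1 UMIs were most in thick ascending limb-like cells at days 2 and 7. At day 30 they were most in macrophage, monocyte or dendritic-like cells. Unnamed clusters were left out of that ranking, so it does not show which cells held most Havcr1 UMIs at that resolution. The day 7 proximal tubule-like calls could not be run without the injured cluster. Leaving the injured cluster out of the proximal tubule-like class gave the 2 reversals, 7.78 for Havcr1 and 0.734 for Lcn2 (day 30 over day 2), and 2 members called at day 2 against untreated, in place of 4. Median scaling left 1 member called in thick ascending limb-like cells for day 30 over day 2, in place of 2. Free RNA subtraction gave 2 in place of 1 in proximal tubule-like cells for day 30 over day 7, and 0 in place of 1 in connecting tubule or principal cell-like cells for day 7 over day 2 and for day 30 over day 7. Leiden resolution 0.5 gave 3 and 2 for those last comparisons. Leiden resolution 2 gave 1 member in place of 3 in proximal tubule-like cells for day 7 and for day 30 over day 2. A per-cell marker gate gave 1 in place of 2 in thick ascending limb-like cells for day 7 over day 2. No minimum on level gave 4 in place of 2 in thick ascending limb-like cells for day 2 over untreated, and 2 in place of 1 in connecting tubule or principal cell-like cells for day 30 over day 2 and over day 7. The mean over cells of per-cell CPM also gave 2 in place of 1 for day 30 over day 2 there.

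The named class with the most UMIs was compared with that under the chosen settings for the 7 members. At day 2 it was the same for 3 members without doublet removal, 4 under a mitochondrial limit of 20%, 2 at resolution 0.5, 4 at resolution 2 and 4 under the per-cell gate, and at day 7 for 2 at resolution 0.5 and 3 without the injured cluster, whose removal takes those cells out of the class. Elsewhere it was the same for 5 or more. Ratios to untreated moved beyond their counting interval without a changed call in 43 of 81 under the per-cell gate, 38 under median scaling, 36 under the mitochondrial limit, 34 with the mean per cell, 24 of 62 under free RNA subtraction and 24 of 35 that a common UMI floor left. Clusters built with the members, like the added doublet alternative, moved no count. The proximal tubule-like class at day 2 (116 cells) and the connecting tubule or principal cell-like class at day 7 (55 cells) rest on few cells. No paired analysis was possible because each group has 1 library and no result comes from a test.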
